A study of Mus musculus with 6 samples.

Results

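Collagen modifying enzymes and chaperones were followed in Met-1 TripZ-200c cells, a line derived from a mouse mammary carcinoma of the MMTV-PyMT model in the FVB/nJ strain. The 10 genes are Crtap, Lepre1, Leprel1, Plod1, Plod2, Plod3, P4ha1, P4hb, Serpinh1 and Colgalt1, out of 43548 gene identifiers in the deposited table and 12879 genes that were tested. They were taken by symbol for their roles in the hydroxylation, glycosylation and folding of procollagen, and partly because this process was lower with doxycycline (Dox) in these same libraries. Their differences between the groups are therefore given as a description, without p-values.

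All 6 libraries came from Met-1 cells carrying the pTripZ vector with the precursor of miR-200c, a construct that is switched on by Dox and marked by RFP. The cells were a single clone sorted for no expression without Dox and for intermediate RFP with it. The group without Dox received vehicle for 48 h, and the group with Dox received 1 µg/mL for 48 h, with 3 cultures each. Cells with the empty vector were not analysed here, so an effect of Dox itself and an effect of miR-200c cannot be told apart. The mRNA was sequenced, and expression is given as FPKM, a measure of fragments scaled to transcript length and library size, which allows levels to be compared between genes.

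Collagens are made in the endoplasmic reticulum as procollagen chains that are modified before and while they wind into a triple helix. Prolyl 4-hydroxylase hydroxylates many prolines, which stabilises the helix at body temperature, and the prolyl 3-hydroxylases modify a few. Lysyl hydroxylases and a galactosyltransferase act on lysines that later serve in cross-links, and the chaperone HSP47 holds the folded helix on its way to the Golgi. In carcinoma cells a mesenchymal state is known to go with the production of matrix, and miR-200c is known to favour the epithelial state by repressing Zeb1 and Zeb2.

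The mature sequence of miR-200c is shown because its seed, bases 2 to 8 in capitals, sets the letters searched for in the 3′ untranslated regions (UTRs). miR-200b and miR-429, which were not introduced into these cells, have the same seed, whereas miR-200a and miR-141 differ in it.
mmu-miR-200c-3p: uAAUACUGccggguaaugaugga
mmu-miR-200b-3p: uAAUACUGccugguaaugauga
mmu-miR-429-3p: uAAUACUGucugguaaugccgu

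Of the 10 genes, only Crtap had a match to the 7 bases CAGTATT, which pair with this seed, in its longest annotated 3′ UTR. Crtap (ENSMUSG00000032431) lies on the minus strand of chromosome 9 of GRCm38 from 114375134 to 114390675, and its 3′ UTR of 395 bases, all in the last of 7 exons, held 2 matches. They are printed with their surroundings, 30 bases each and the match in capitals, because they stand in the gene of the 10 with the largest difference between the groups. The first lies at bases 150 to 156 of the 3′ UTR (window chr9:114375365-114375394) and the second at bases 334 to 340 (window chr9:114375181-114375210), where it is followed by an A.
Crtap site 1: ccccttgttcacactCAGTATTcacgcttg
Crtap site 2: tccctgaagaaaaatCAGTATTatttttta

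The 6 libraries had FPKM sums between 800300 and 815100, and between 16867 and 18012 genes above 0. Their relative depth, read from the steps between the lowest values, ranged from 0.916 to 1.49 times that of the first library without Dox. How many reads stand behind each value cannot be known from FPKM. The state of the cells followed the labels. Zeb1 was at 41.0, 42.1 and 42.3 FPKM in the vehicle cultures and at 19.8, 20.3 and 23.6 FPKM in the Dox cultures. Cdh1, which encodes E-cadherin, was at most 0.0776 FPKM without Dox and at least 0.554 FPKM with it. Cdh1 was near the floor, with a mean of 0.443 FPKM over the 6 libraries, and was not tested. Of 7 carcinoma markers 4 (Krt18, Krt7, Epcam and Vim) had a mean of at least 1 FPKM, whereas Krt19 was listed at 0 throughout. These markers did not move together. Krt18 was at 91.2 to 96.4 FPKM without Dox and 364 to 400.0 FPKM with it, Krt7 at 43.1 to 47.5 and 273 to 275 FPKM, and Epcam at 0.0844 to 0.161 and 3.88 to 4.31 FPKM, all higher with Dox. Vim, a mesenchymal marker, was lower, at 3840 to 4055 and 3027 to 3198 FPKM, and made up most of the sum of the list, which was 3977 to 4199 and 3708 to 3871 FPKM. The fibroblast markers, 2 of 7 of which (Pdgfra and Pdgfrb) reached a mean of 1 FPKM, summed to between 50.9 and 53.4 FPKM without Dox and between 30.7 and 33.0 FPKM with Dox. Lum and Fap were listed at 0 in all libraries. All libraries came from a single clone of a carcinoma line. In them Pdgfrb was at 30.7 to 33.4 FPKM without Dox and 15.3 to 15.7 FPKM with it. Pdgfra was at 18.4 to 18.8 and 14.4 to 16.4 FPKM. The part of the decrease of this sum in the results on collagen enzymes was not tested. Of 5 macrophage markers 2 reached 1 FPKM and Emr1 was listed at 0, and they summed to between 7.52 and 14.0 FPKM without Dox and 7.89 and 9.28 FPKM with it, and the 4 endothelial markers, of which 1 reached 1 FPKM, to between 4.47 and 5.12 and between 4.19 and 4.59 FPKM.

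All 10 genes were well expressed, and each passed the filter of a mean of 1 FPKM. Without Dox the order of the levels was P4hb, Serpinh1, Colgalt1, Plod3, Crtap, P4ha1, Plod1, Plod2, Lepre1 and Leprel1. P4hb, at 1454 ± 25.9 FPKM (SD, n = 3), was 2.05 times as high as Serpinh1, at 711 ± 3.90 FPKM, and Serpinh1 was 5.08 times as high as Colgalt1, at 140 ± 4.89 FPKM. The lowest was Leprel1, at 20.8 ± 2.35 FPKM. Neighbours in this order did not overlap over the 3 libraries, except Plod3 with Crtap and Plod2 with Lepre1, which did not differ beyond their spread. P4hb alone made up 52.6% of the summed FPKM of the 10 genes, and 55.7% with Dox.

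With Dox the order changed in the middle. Crtap went from the fifth place to the eighth, where its values overlapped those of both neighbours, Plod2 and Lepre1. Plod3 stood above Colgalt1 with Dox and below it without Dox. The summed FPKM of the 10 genes was 2794, 2765 and 2739 without Dox and 2443, 2417 and 2382 with Dox.

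In limma, 7 of the 10 genes reached an adjusted p under 0.05 over all genes tested, 6 lower with Dox (Crtap, Lepre1, Plod1, P4hb, Serpinh1 and Colgalt1) and 1 higher (Leprel1). Plod2, Plod3 and P4ha1 did not pass. Over all 12879 genes tested, 15% passed, 7.97% lower and 7.06% higher. Because the genes were partly chosen on this contrast, nothing can be read from the count against that background. For the same reason, the calls of single genes, and whether they held in refits of these 6 libraries, are descriptions. The 3 values with Dox lay on 1 side of the 3 values without Dox in 8 of the 10 genes. The share was 35% over the 12875 tested genes without a missing value. The median log2 fold change of the 10 genes was -0.16, against 0.00 over all genes tested. The difference was smaller than 1.5-fold in 8 of them. In bulk RNA a lower level can come from fewer cells that express a gene or from less RNA per cell, and these cannot be told apart.

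**Figure D1:**
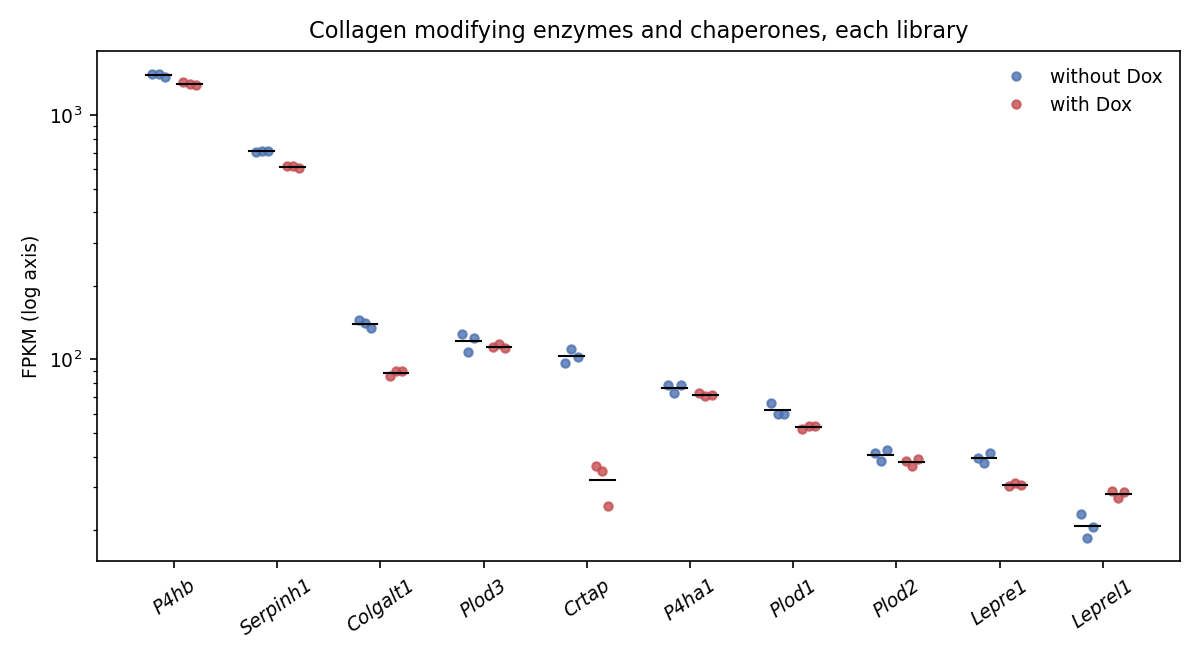
FPKM of the 10 genes in each library on a log axis, ordered by the mean without Dox (blue, 3 libraries) and shown beside the 3 libraries with Dox (red), with black bars at the group means. Crtap stands out with values of 96.7 to 111 FPKM without Dox and 25.1 to 36.7 FPKM with Dox, and Leprel1 is the gene whose 3 values with Dox lie above those without.

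Crtap showed the largest difference of the 10 genes. It encodes the cartilage-associated protein, which has no catalytic activity of its own and holds prolyl 3-hydroxylase 1 and cyclophilin B in a complex. Its level was 96.7, 111 and 103 FPKM without Dox and 36.7, 34.8 and 25.1 FPKM with Dox. The groups were far apart, and the third library with Dox was the lowest of all. The mean was 3.21-fold lower with Dox, and the log2 fold change was -1.70 (standard error 0.140). Leaving out each library in turn moved it between -1.80 and -1.53. Of the 12879 genes tested, 40 had a lower log2 fold change.

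Lepre1 (ENSMUSG00000028641, chr4:119232915-119248975, plus strand), now named P3h1, encodes the catalytic subunit of the same complex. It was at 39.6, 37.7 and 41.4 FPKM in the vehicle cultures and at 30.2, 31.3 and 30.6 FPKM in the Dox cultures. The groups did not overlap, but the mean was only 1.29-fold lower (log2 fold change -0.36, standard error 0.0519). Leprel1 (ENSMUSG00000038168, chr16:25959288-26105784, minus strand), now P3h2, encodes prolyl 3-hydroxylase 2, which is known to act on basement membrane collagen, and was the only one of the 10 genes that was higher with Dox. It was at 23.3, 18.6 and 20.5 FPKM in the vehicle cultures and at 29.1, 27.0 and 28.7 FPKM in the Dox cultures, which gave a log2 change of 0.44 (standard error 0.0877). Its adjusted p no longer passed in the linear model on FPKM, without the third library without Dox, or without the first or the third with Dox, while the log2 fold change stayed between 0.37 and 0.53. The antisense gene Gm4524 covers 28.4% of the exon bases of Leprel1 and was at most 0.517 FPKM. Whether reads were counted by strand is not given in the sources used here.

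Because Crtap and Lepre1 act in 1 complex, their ratio was taken within each library. It was 2.44, 2.94 and 2.48 without Dox and 1.21, 1.11 and 0.818 with Dox, so that the transcripts of the scaffold exceeded those of the enzyme in every library without Dox and were close to them with Dox. The ratio of Crtap to Ppib, which encodes cyclophilin B, was 0.0937 ± 0.00799 without Dox and 0.0274 ± 0.00506 with Dox (SD, n = 3 each). Ppib itself was at 1112, 1080 and 1121 FPKM in the vehicle cultures and at 1170, 1195 and 1155 FPKM in the Dox cultures. It did not pass (log2 fold change 0.09, adjusted p = 0.0615 from limma, range 0.0356 to 0.23 over the alternatives), and the opposite-strand gene Snx22 covers 25% of its exon bases, at no more than 0.693 FPKM. A ratio chosen after the values were seen, that of Lepre1 to Leprel1, was 1.91 ± 0.185 without Dox and 1.09 ± 0.0645 with Dox (SD, n = 3 each). The 2 prolyl 3-hydroxylase genes were thus at close to equal levels with Dox, although the lowest Lepre1 value still exceeded the highest Leprel1 value.

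Colgalt1 (ENSMUSG00000034807, chr8:71610998-71624911, plus strand) encodes the galactosyltransferase that adds galactose to hydroxylysine in collagen, and it had the second largest difference. It was at 144, 141 and 135 FPKM in the vehicle cultures and at 85.4, 89.3 and 89.7 FPKM in the Dox cultures. The groups were well separated, and the mean was 1.59-fold lower with Dox (log2 fold change -0.67, standard error 0.0408). It passed in all 15 alternatives in which all genes were fitted again, which reuse the same libraries and give no separate support. The neighbouring gene Unc13a, on the opposite strand, covers 11.4% of its exon bases and was at most 0.301 FPKM. Its homolog Colgalt2 was listed at 0 in all 6 libraries.

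The lysyl hydroxylases differed little. Plod1 (ENSMUSG00000019055, chr4:147909753-147936767, minus strand), which hydroxylates lysines in the helical part of collagen, was at 66.1, 59.7 and 59.6 FPKM in the vehicle cultures and at 52.1, 53.3 and 53.2 FPKM in the Dox cultures. The groups did not overlap, and the log2 fold change was -0.22 (standard error 0.0519), but it did not pass with any of the 6 libraries left out, in limma without the trend, in the linear model on FPKM or with the replicate block. Plod2 (ENSMUSG00000032374, chr9:92542223-92608428, plus strand), which acts on the telopeptides and so on the kind of cross-link formed, was at 41.3, 38.3 and 42.5 FPKM in the vehicle cultures and at 38.2, 36.5 and 39.0 FPKM in the Dox cultures. Its groups overlapped (log2 fold change -0.10, standard error 0.0566). Plod3 (ENSMUSG00000004846, chr5:136987019-136996648, plus strand), which also carries glycosyltransferase activity, was at 127, 107 and 122 FPKM in the vehicle cultures and at 112, 116 and 111 FPKM in the Dox cultures, and its groups overlapped as well (log2 fold change -0.07, standard error 0.0635). Znhit1 covers 11.7% of the exon bases of Plod3 from the opposite strand and was itself at 83.6 to 92.4 FPKM, so the reads of these neighbours may not be fully separated. The ratio of Plod2 to Plod1 was 0.66 ± 0.047 without Dox and 0.717 ± 0.0288 with Dox, with overlapping values. That of Plod3 to Plod1 was 1.92 ± 0.126 and 2.13 ± 0.0428 (SD, n = 3 each), with no overlap.

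Prolyl 4-hydroxylase is a tetramer of catalytic alpha subunits, encoded by P4ha1, P4ha2 and P4ha3, with protein disulfide isomerase as the beta subunit, encoded by P4hb. P4ha1 (ENSMUSG00000019916, chr10:59323296-59373304, plus strand) was at 78.5, 72.8 and 78.3 FPKM in the vehicle cultures and at 72.6, 70.9 and 71.6 FPKM in the Dox cultures. Its groups were separated by less than 1 FPKM (log2 fold change -0.09, standard error 0.0434). P4hb (ENSMUSG00000025130, chr11:120560298-120573253, minus strand) was at 1471, 1466 and 1424 FPKM in the vehicle cultures and at 1368, 1338 and 1328 FPKM in the Dox cultures. All values with Dox were lower, by little (1.08-fold, log2 fold change -0.11, standard error 0.0240). P4hb did not pass without the filter on low values, in limma without the trend, or when either of the first 2 libraries without Dox or either of the last 2 with Dox was left out. P4hb was about as many times as high as P4ha1 in both groups, 19.0 ± 1.01 without Dox and 18.8 ± 0.189 with Dox (SD, n = 3 each).

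Serpinh1 (ENSMUSG00000070436, chr7:99345376-99353239, minus strand) encodes HSP47, a serpin-family chaperone that binds collagen. It was at 706, 713 and 713 FPKM in the vehicle cultures and at 619, 620 and 606 FPKM in the Dox cultures. The spread within the groups was the smallest of the 10 genes without Dox, with a coefficient of variation of 0.549%, and the groups did not overlap. The mean was 1.16-fold lower with Dox (log2 fold change -0.21, standard error 0.0228). The gene passed in all 15 refitted alternatives, which reuse the same libraries and give no separate support.

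**Figure D2:**
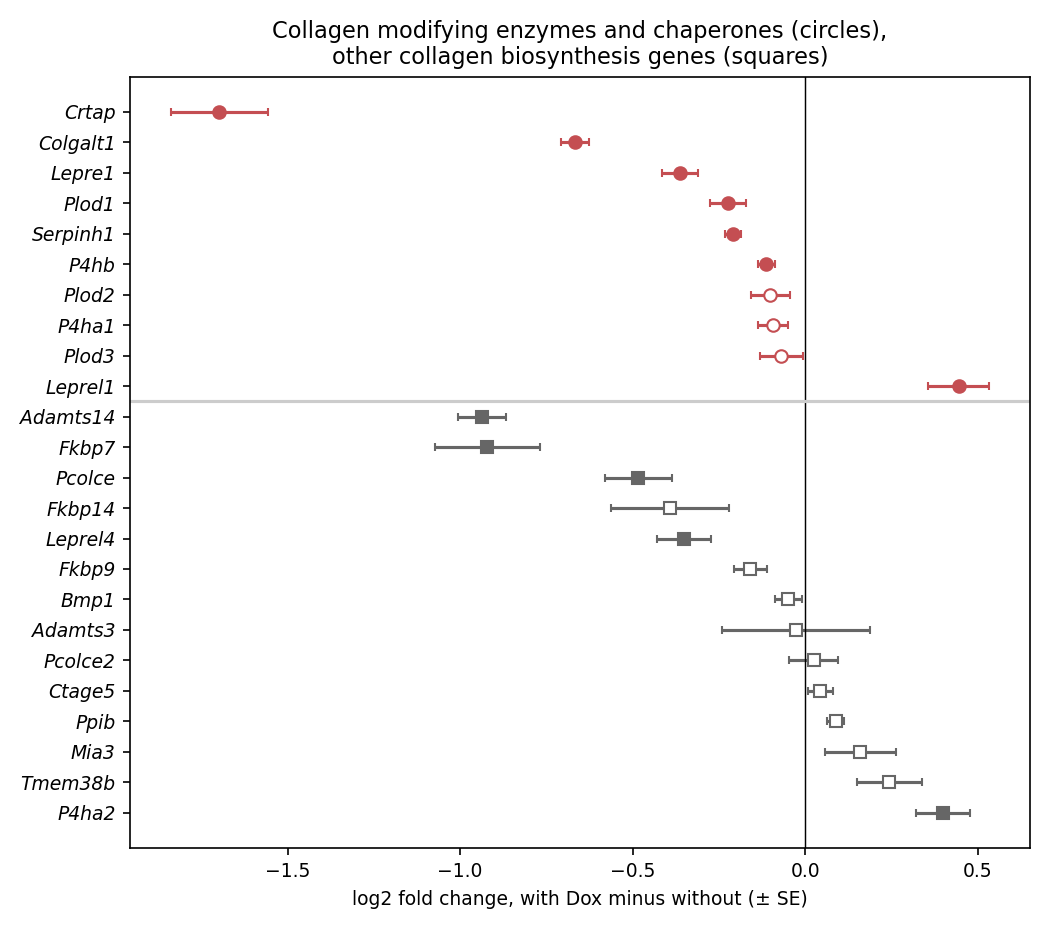
Log2 fold change with Dox against without, with its standard error, on the log2(FPKM + 0.1) scale, for the 10 genes (red circles) and the 14 tested genes of the list of other collagen biosynthesis genes (grey squares). Filled symbols have an adjusted p under 0.05 from limma. Crtap lies at -1.70, Colgalt1 at -0.67 and Leprel1 at 0.44, and most other genes lie within 0.5 of 0.

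Beside the 2 seed matches in Crtap, the other 9 genes had no 7-base match. The 3′ UTRs of the 10 genes were between 387 and 2230 bases long, and that of Crtap was the second shortest. Among 10798 tested genes with an annotated 3′ UTR, 16.1% had at least 1 match, 13.1% had 1 and 3.04% had 2 or more. Longer 3′ UTRs hold more matches, and the median length was 1009 bases for genes with no match and 3470 bases for genes with 2 or more. Among 1081 genes with a 3′ UTR of 300 to 500 bases, 33 had 1 match, and Crtap was the only gene with 2 or more. A match is a run of letters in the reference and not a measured site, and the sequence of the FVB/nJ strain was not examined.

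Genes are not independent replicates of each other, but as a description across them the median log2 fold change was 0.01 for genes with no match, -0.05 with 1 match and -0.08 with 2 or more. In the group with 2 or more, the quartiles were -0.24 and 0.05, far above the -1.70 of Crtap. These groups differ in the length of the 3′ UTR. Among genes with a 3′ UTR of 300 to 500 bases, the median was 0.01 for the 1047 with no match and -0.17 for the 33 with 1 match. A single gene of the 328 with 2 or more matches had a lower log2 fold change than Crtap. This was Zeb2, with 5 matches in a 3′ UTR of 4941 bases, which fell from 29.3 ± 1.43 to 8.29 ± 0.661 FPKM (SD, n = 3 each). Colgalt1 and P4ha1 each had 1 match to the shorter AGTATT, which 36.8% of the 10798 genes have. In the promoters, the letters CACCTG (or CAGGTG on the other strand), the E-box that ZEB factors are known to bind, were searched in windows of 300 bases around the gene starts, mostly upstream of them, in RefSeq of GRCm38.p6. They were in none of the 10 windows of the 8 genes matched, and 20.2% of all 32851 windows held them. Leprel1 and Plod2 were not in the promoter table.

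**Figure D3:**
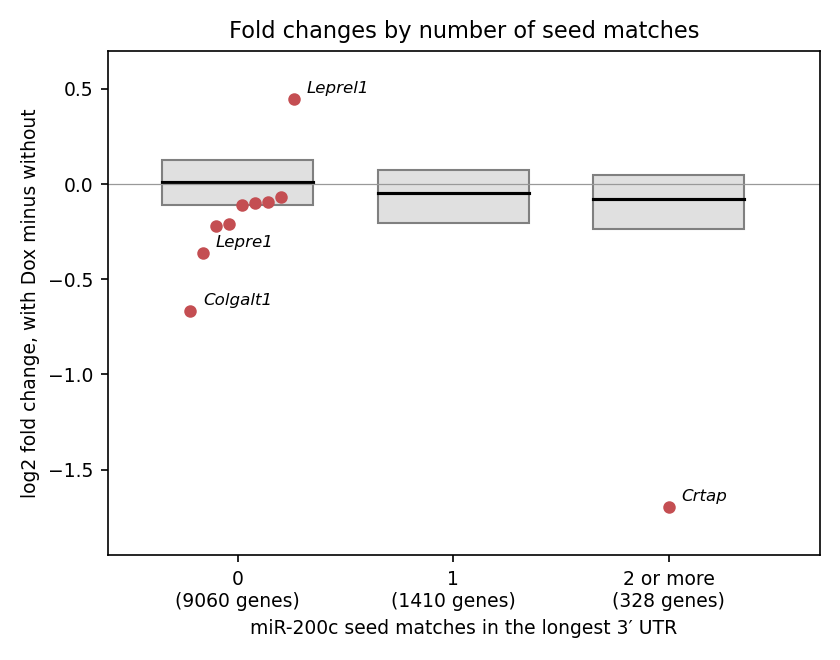
Log2 fold change with Dox against without by the number of 7-base seed matches of miR-200c in the longest 3′ UTR. Grey boxes span the quartiles of all tested genes with 0, 1 or 2 and more matches (9060, 1410 and 328 genes), black lines are the medians, and red points are the 10 genes, spread sideways where they have 0 matches. Crtap, with 2 matches, lies at -1.70, and the other 9 genes have 0 matches.

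To describe other steps of collagen synthesis, a list of 22 genes outside the 10 was set with earlier results of these data known. Of the 22 genes, 14 had a mean of at least 1 FPKM and were tested. With Dox 4 of these fell, 1 rose and 9 did not pass, and the median log2 fold change was -0.04. These counts of 4 and 1 out of 14 stand beside 7.97% and 7.06% over all genes. Because of how the list was set, nothing can be read from the counts against that background. The adjusted p-values of its genes are descriptions as well. Adamts14, a procollagen N-proteinase, fell in all 15 refitted alternatives. It was at 15.7, 15.5 and 16.2 FPKM in the vehicle cultures and at 8.54, 8.0 and 8.08 FPKM in the Dox cultures, in groups that were far apart (log2 fold change -0.94, standard error 0.0683, adjusted p = 3.24e-04 from limma). Its adjusted p stayed between 2.73e-04 and 0.00451 over the alternatives.

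Fkbp7, a prolyl isomerase of the endoplasmic reticulum, was at 14.1, 9.96 and 13.1 FPKM in the vehicle cultures and at 5.98, 7.34 and 6.04 FPKM in the Dox cultures. It fell by 0.92 on the log2 scale (standard error 0.152, adjusted p = 0.00888 from limma), and of the alternatives (adjusted p from 0.00633 to 0.0773) only a linear model on FPKM put it over the threshold. Pcolce, which enhances the removal of the C-propeptide, fell from 34.1 ± 3.06 to 24.4 ± 2.56 FPKM (SD, n = 3 each, log2 fold change -0.48, adjusted p = 0.0178 from limma). Leprel4, a non-catalytic relative of the prolyl 3-hydroxylases that is now named P3h4, fell from 12 ± 0.108 to 9.37 ± 0.648 FPKM (log2 fold change -0.35, adjusted p = 0.0270 from limma).

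P4ha2, the second alpha subunit of prolyl 4-hydroxylase, rose. It was at 21.2, 20.7 and 19.5 FPKM in the vehicle cultures and at 28.2, 24.3 and 28.6 FPKM in the Dox cultures, so that all values with Dox were higher (log2 fold change 0.40, standard error 0.0784, adjusted p = 0.0167 from limma). The ratio of P4ha1 to P4ha2, chosen after the values were seen, was 3.74 ± 0.256 without Dox and 2.66 ± 0.221 with Dox (SD, n = 3 each). P4ha3 had a mean of 0.673 FPKM without Dox and 0.323 FPKM with Dox and was not tested. Pcolce, Leprel4 and P4ha2 did not hold when libraries were left out. Leprel4 lost its call without any of the 6 (adjusted p up to 0.0852), Pcolce without either of the first 2 of each group (up to 0.0619), and P4ha2 without the third of either group or the first with Dox (up to 0.066). The count of 5 was 2 or 3 in each of these fits. Pcolce and P4ha2 did not pass in the linear model on FPKM either (adjusted p = 0.0864 and 0.0769).

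The isomerases Fkbp9, at 87.6 ± 3.76 and 78.4 ± 2.77 FPKM, and Fkbp14, at 5.29 ± 0.886 and 4.0 ± 0.589 FPKM without and with Dox, did not pass (adjusted p = 0.0666 and 0.185 from limma). Fkbp10, an isomerase known to act on type I collagen, was at most 0.139 FPKM. Mia3 and Ctage5, which act in the export of procollagen, did not pass, at 0.16 and 0.04 on the log2 scale (adjusted p = 0.365 and 0.484 from limma). The C-proteinase Bmp1, at 71.2 ± 0.910 and 68.8 ± 2.02 FPKM, did not pass either (-0.05 on the log2 scale, adjusted p = 0.457 from limma).

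The substrates of these enzymes are the collagen chains, of which 44 are in the table and 10 had a mean of at least 1 FPKM. With Dox 4 of the 10 fell (Col4a5, Col5a1, Col6a1 and Col6a2) and 6 did not pass in limma, beside 7.97% of all genes that fell. The count was 4 with each library left out as well. This list too was set with earlier results of these data known, so the count is a description. The log2 fold changes of these 4 genes lay between -0.73 and -0.59, and of the 10 enzyme and chaperone genes only Crtap and Colgalt1 were as low. Type I and type III collagen chains were near the floor, with at most 0.617 FPKM for Col1a1, 0.609 FPKM for Col1a2 and 0.0432 FPKM for Col3a1. P4hb and Serpinh1 were thus among the highest of the 10 genes in cells with little mRNA of the classical fibrillar chains, while Col12a1 stood at 55.9 ± 2.19 FPKM and Col5a1 at 32.5 ± 1.19 FPKM without Dox (SD, n = 3 each).

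**Figure D4:**
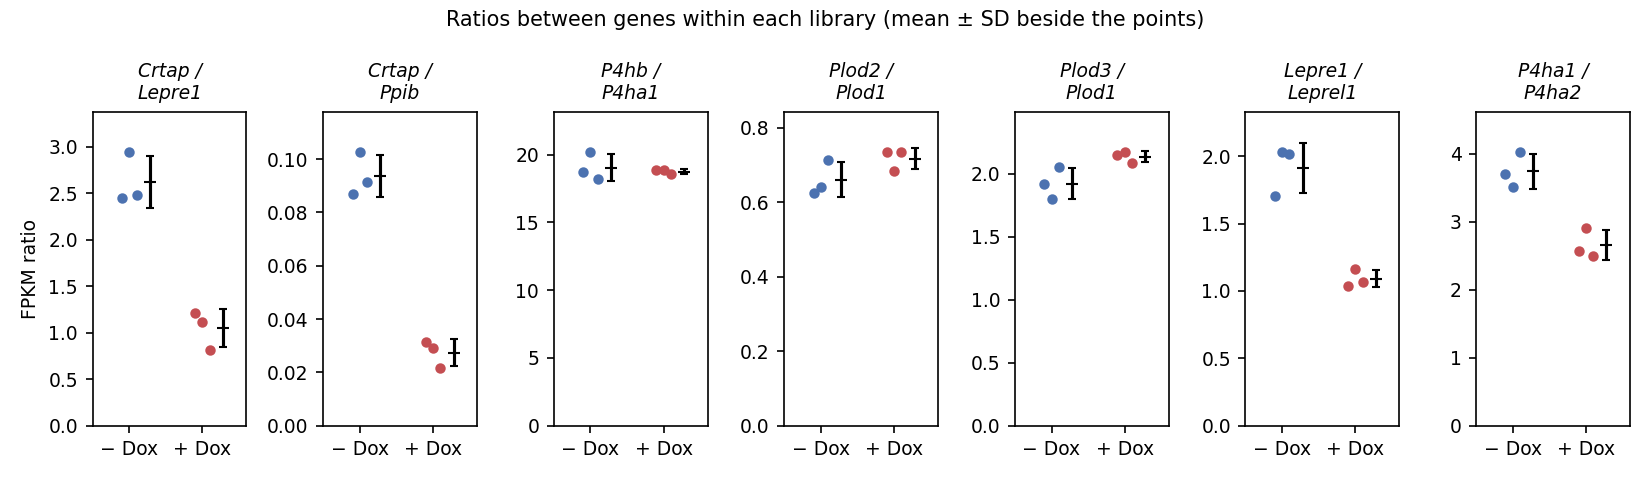
FPKM ratios between genes within each library, without Dox (blue) and with Dox (red), 3 libraries each, with the mean and SD beside the points and each axis starting at 0. The ratio of Crtap to Lepre1 went from 2.62 to 1.05 on average, whereas that of P4hb to P4ha1 was 19.0 and 18.8.

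The genes whose profile over the 6 libraries was nearest to that of Crtap were Nptx1, Slc6a2, Zeb2, Mmp3 and Ckb. Nearness was the Euclidean distance between log2(FPKM + 0.1) values after subtraction of the mean without Dox, and it was 0.375, 0.437, 0.438, 0.479 and 0.547. All of them were lower with Dox, by log2 fold changes of -1.62, -1.87, -1.81, -1.87 and -1.48, and the distance reflects mainly the size of that difference. The genes were at different levels, from 6.58 FPKM for Nptx1 to 167 FPKM for Mmp3 without Dox.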

How the data were processed

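The values are those of the authors, who mapped single 50-base reads of TruSeq stranded libraries with gSNAP to the mouse genome (GRCm38.p6, FVB_NJ_v1) and estimated FPKM with Cufflinks. The deposited table gives FPKM for 6 libraries, 3 per group by their labels, with group means and the authors' fold changes, p-values and q-values, which were not used. The number of unused per-sample columns was 0.

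Of 43611 rows, 63 with a repeated identifier were dropped in favour of the row with the highest mean, and for a repeated symbol the identifier with the highest mean was taken. The value 999999999 in 6 places was treated as missing. The 12879 genes whose mean over the libraries reached 1 FPKM entered the fit of log2(FPKM + 0.1), which used the package limma (3.58.1, under R 4.3.3, eBayes with a trend, group as the only term), with Benjamini-Hochberg adjustment at 0.05. The pseudocount understates changes of low genes. The study's methods name ANOVA, which was run as an alternative. An exact permutation of 3 against 3 libraries cannot go below p = 0.1 and was not used. The cultures came from 1 clone, so p-values measure the spread between cultures of that clone.

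The genes named are the 10 genes, those of the list of 22 that passed, Ppib and P4ha2, Zeb1, Zeb2 and Cdh1, and the 5 nearest to Crtap; others are named with values because a count or ratio turned on them. The 10 genes and all lists were chosen with earlier results of these data known. Positions, exons and 3′ UTRs are those of GENCODE M21 (GRCm38), in which all 10 genes were matched by identifier, and miRNA and promoter sequences are from RefSeq (GRCm38.p6). Shared sequence was searched by BLAST 2.17.0, counting hits of 50 bases or more with 95% identity. Protein features were planned and not analysed here. In simulated data 74.5% of 200 genes changed by 1 log2 unit among 12875 were called, and 4.49% of calls were false. Smaller changes, such as those of most of the 10 genes, were not simulated, so these rates do not apply to them. Alternatives were the pseudocount, the filter, quantile and median scaling, limma without the trend, a linear model on FPKM, a replicate block, stricter thresholds, the omission of each library, and for the 3′ UTRs other transcripts and a 6-base match. Tables were handled in pandas 2.3.3 and numpy 2.4.6 under Python 3.11.15, and plots drawn in matplotlib 3.10.9.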

Additional observations from a re-analysis of the deposited data

How the results depend on the processing

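Of the 10 genes, 7 passed, and 5 did in the linear model on FPKM (all lower with Dox) and in limma without the trend. The count was 6 without the filter, 4 at an adjusted p under 0.01 and 2 with a minimum change of 1.5-fold (Crtap and Colgalt1). It was between 4 and 5 with 1 library left out, and 4 without the third library with Dox. Calls over all genes dropped too, from 1935 to 1289 in the linear model on FPKM and 1495 without the trend. They were 1608 without the filter, where more genes were tested, and between 1048 and 1359 with 1 library left out. Of the 22 other genes, 5 passed, and 2 did in the linear model on FPKM, at an adjusted p under 0.01 and with a minimum change of 1.5-fold, 3 with the replicate block, and between 2 and 3 with 1 library left out. The median log2 fold change of the 10 genes lay between -0.18 and -0.14 with 1 library left out. With the 6-base match, 3 of the 10 genes had a match in place of 1, since fewer letters match more often. Adamts3, near 0 in all fits, changed sign under quantile normalization (0.0123) and with libraries left out (-0.147 to 0.0602), as did Pcolce2 with libraries left out (-0.0242 to 0.0972). The causes were not tested. After subtraction of the group means, libraries of the 2 groups with the same replicate number correlated by 0.0287, 0.0359 and -0.00759 across genes. Those with different numbers correlated by -0.0511 to 0.0235. All values were near 0, and pairing by number was not clear from them. With the replicate block 6 of the 10 genes passed (Plod1 did not), 3 of the 22 other genes, 4 collagen chains and 1337 of all genes in place of 1935. The order of the levels without Dox was the same by medians and with each library left out, alternatives that for the omissions, as for those of the ratios, were added after the data were seen. Scaling moved the median of all genes by less than 0.01 on the log2 scale. Depth is known only in relative terms, so counting error could not be computed.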
